A study of Mus musculus with 10 samples.

Results

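The genes described here encode the cyclins, the cyclin-dependent kinases (CDKs) and the proteins that inhibit, activate or destroy them in mouse embryonic stem (ES) cells. They were taken by symbol: A, B, C, E, F, H, K, L and T cyclins and Ccno, numbered Cdk, Cdc and E2f genes, the Cdkn inhibitors, the Rb family, Wee1, Skp2, the Cks and Anapc genes and Fzr1, leaving out Cdkn1a and the Cdc42 genes. RefSeq holds 100 protein-coding mouse genes with such a symbol, and 62 of them were listed in at least 1 of the 4 deposited tables, which together list 8694 genes. The tables hold only genes the authors called different from wild type, so the other 38, among them Cdk2, Cdk6, E2f4, Skp2 and Cdc25b, have no value and are not shown to be unaltered.

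Ribosome-depleted, strand-specific RNA-seq libraries were made from 10 samples: E14 wild type cells and 4 lines made from E14 with CRISPR/Cas9, 2 libraries in each of the 5 groups. The mutated gene is Mbd3, which encodes a subunit with a methyl-CpG binding fold in NuRD, a complex that remodels and deacetylates chromatin, and makes isoforms a, b and c. Mbd3ab KO (Mbd3ab -/-) and Mbd3cΔN-ab KO (genotype Mbd3cdeltaN; ab-/-) carry mutations in exon 2, Mbd3c KO (Mbd3c -/-) in intron 2 and Mbd3abc KO (Mbd3abc -/-) in exon 5. All lines grew on gelatin-coated plates, and the title of the series concerns a NuRD form of ES cells and its partner Wdr5. The labels call the samples biological replicates but do not say whether they came from separate clones, so p-values measure the spread between these samples. The deposited columns give each mutant library a name of its own, and what these names stand for is not said. All mutants were set against the same wild type libraries, and the comparisons therefore share their controls.

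Progress through the cycle is driven by CDKs that act when bound to a cyclin: cyclin E with Cdk2 around the start of DNA replication, cyclins A and B with Cdk1 up to mitosis. The Rb family holds E2F transcription factors back until CDKs phosphorylate it, inhibitors of the Cdkn families block the kinases, and the APC/C and SCF ubiquitin ligases end each phase by marking cyclins and inhibitors for destruction. ES cells are known for a short first gap phase and for cyclin E activity that varies little through the cycle. Several cyclins and CDKs have another job: cyclins C, H, K, L and T and their kinases act mainly on RNA polymerase II.

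Mbd3 RNA itself was called lower in Mbd3ab KO, Mbd3abc KO and Mbd3cΔN-ab KO, by 2.61-, 12.99- and 5.57-fold, and was not listed for Mbd3c KO. Its normalized reads were 1523 and 1468 in wild type against 506 and 638 in the first of these tables, 1775 and 1689 against 108 and 158 in the next, and 1685 and 1614 against 299.6 and 292 in the last. Against the first wild type library, those used most below held between 0.940 (first Mbd3cΔN-ab KO library) and 1.59 (second wild type library) times the reads, and absolute totals are not known since each table lists only called genes. Of 8 ES cell markers, 6 were called in Mbd3abc KO and 4 in Mbd3cΔN-ab KO. Pou5f1, a core pluripotency gene, stood at 10868 and 11649 normalized reads in wild type and 2816 and 4647 in Mbd3abc KO and fell 3.02-fold there and 2.04-fold in Mbd3cΔN-ab KO. Esrrb and Utf1 also fell in both, Klf4 rose in both, Sox2 and Tdgf1 rose in Mbd3abc KO (1.40-fold and 1.31-fold), and Nanog and Zfp42 were listed in no table. The summed level of the 6 ES cell markers called in Mbd3abc KO was 40751 and 40756 in wild type against 29421 and 32055. For the 4 called in Mbd3cΔN-ab KO it was 28632 and 28980 against 16653 and 19370. Of markers of other cells, 2 of 7 of fibroblasts, 1 of 6 of primitive endoderm and 1 of 6 of trophectoderm were called in Mbd3abc KO, and 2, 0 and 3 in Mbd3cΔN-ab KO. The fibroblast pair went opposite ways: Thy1 rose 3.27-fold and 2.12-fold, and Col1a1 fell 1.87-fold and 2.57-fold, their sum being 228 and 209.6 in wild type and 574 and 589.6 in Mbd3abc KO, and 216 and 200.3 against 339 and 385 in Mbd3cΔN-ab KO. Dab2, the called primitive endoderm gene, had 23.2 and 10.6 in wild type and 46.4 and 120.2 in Mbd3abc KO. Krt7, a trophectoderm gene, had 7.73 and 8.98 and rose 5.07-fold and 4.91-fold, while Tfap2c and Hand1 fell 3.97-fold and 6.55-fold in Mbd3cΔN-ab KO, where the 3 genes summed to 1152 and 1108 in wild type and 206 and 434 in the mutant. In Mbd3ab KO Tfap2c alone of these markers was called and fell 2.18-fold. The part of these cells in the results was not tested. In RNA from whole cultures, fewer cells of a type or cycle phase and less RNA per cell cannot be told apart.

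Cell cycle genes were called in both directions in the 2 lines with the lowest Mbd3 RNA. A gene counts as called at an adjusted p under 0.05 in the authors' deposited DESeq2 tables, levels are normalized reads (reads divided by the authors' size factor of each library, n = 2 per group), and a fold is the ratio of group means, while deposited log2 fold changes are shrunken towards 0. Each table was normalized separately, so the same wild type libraries have slightly different levels in each; where values are set against each other, wild type comes first. In Mbd3abc KO 61 of them were called, 40 higher and 21 lower, where 52.1% of the 15622 genes the authors tested were called (27.1% higher, 24.9% lower). In Mbd3cΔN-ab KO 48 were called, 30 higher and 18 lower, beside 41.5% of 14429 genes (21.1% higher, 20.4% lower). In Mbd3ab KO the only called gene was the inhibitor gene Cdkn2a (3.35% of 13201 genes called, 2.05% higher). In Mbd3c KO there was none by the authors' DESeq2, where 0.353% of 10759 genes were called. A limma fit could call none there, since it was run on the listed genes only. How many of the 100 genes were among those tested is not known. Higher genes made up 65.6% of the called cell cycle genes in Mbd3abc KO and 52.1% of all called genes, and 62.5% and 50.9% in Mbd3cΔN-ab KO. With size factors taken over the listed genes, which lower all log2 ratios by a median of 0.24 and 0.19, a DESeq2 refit called 28 higher and 21 lower in Mbd3abc KO, and 17 higher and 17 lower in Mbd3cΔN-ab KO, beside 41.8% and 31.9% of all tested genes.

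The changes were mostly moderate. A fold of at least 2 was reached by 39.3% of the called cell cycle genes in Mbd3abc KO and by 61.7% of all called genes there, and by 31.3% and 45.7% in Mbd3cΔN-ab KO. Of all tested genes 32.1% and 18.9% were called with such a fold. All 47 genes called in both lines had the same direction in both, 30 higher and 17 lower. Nearly all other genes did so too: 5373 had 1 direction in both tables, where 5413 were listed in both. Both lines were set against the same wild type libraries. The genes called in Mbd3abc KO and not listed for Mbd3cΔN-ab KO numbered 14 (Ccna2, Ccnb1, Ccnl2, Cdc16, Cdk14, Cdk16, Cdk2ap2, Cdk4, Cdk5rap1, Cdk8, Cdkn2aip, E2f7, Rbl1 and Rbl2), and Cdkn1c was listed for Mbd3cΔN-ab KO alone of the pair. Being listed for 1 line and not for the other is no test of a difference between them.

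Fewer calls were made without a wild type library than without a mutant library, and the cause was not tested. When DESeq2 was refitted to the listed genes with the authors' size factors, 54 cell cycle genes were called in Mbd3abc KO, and 29 and 27 without the first or the second wild type library, against 50 and 45 without the first or second mutant library. For Mbd3cΔN-ab KO the refit called 37, with 13 and 11 without a wild type library and 34 and 30 without a mutant library. Among these calls the higher ones outnumbered the lower: without the first or second wild type library they were 19 higher and 10 lower and 16 higher and 11 lower in Mbd3abc KO, and 9 higher and 4 lower and 8 higher and 3 lower in Mbd3cΔN-ab KO. With size factors over the listed genes the order turned, to 11 higher and 18 lower and 13 higher and 16 lower in Mbd3abc KO, and to 5 higher and 13 lower and 2 higher and 10 lower in Mbd3cΔN-ab KO (26.2%, 25.5%, 14.7% and 13.8% of all tested genes called). Calls made in every such fit numbered 24 in Mbd3abc KO and 9 in Mbd3cΔN-ab KO (Anapc5, Ccne1, Ccnh, Cdc14b, Cdc27, Cks1b, Cks2, Fzr1 and Rb1), beside 19.6% and 9.36% of all tested genes. Such fits assume that a lone library varies as much as the libraries of the remaining group. Over all tested genes the refit called 42.9% in Mbd3abc KO and 32.2% in Mbd3cΔN-ab KO, which became 22.5%, 23.3%, 33.7% and 35.2%, and 11.2%, 11.6%, 24.6% and 26.3%, without the first or second wild type and the first or second mutant library.

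**Figure D1:**
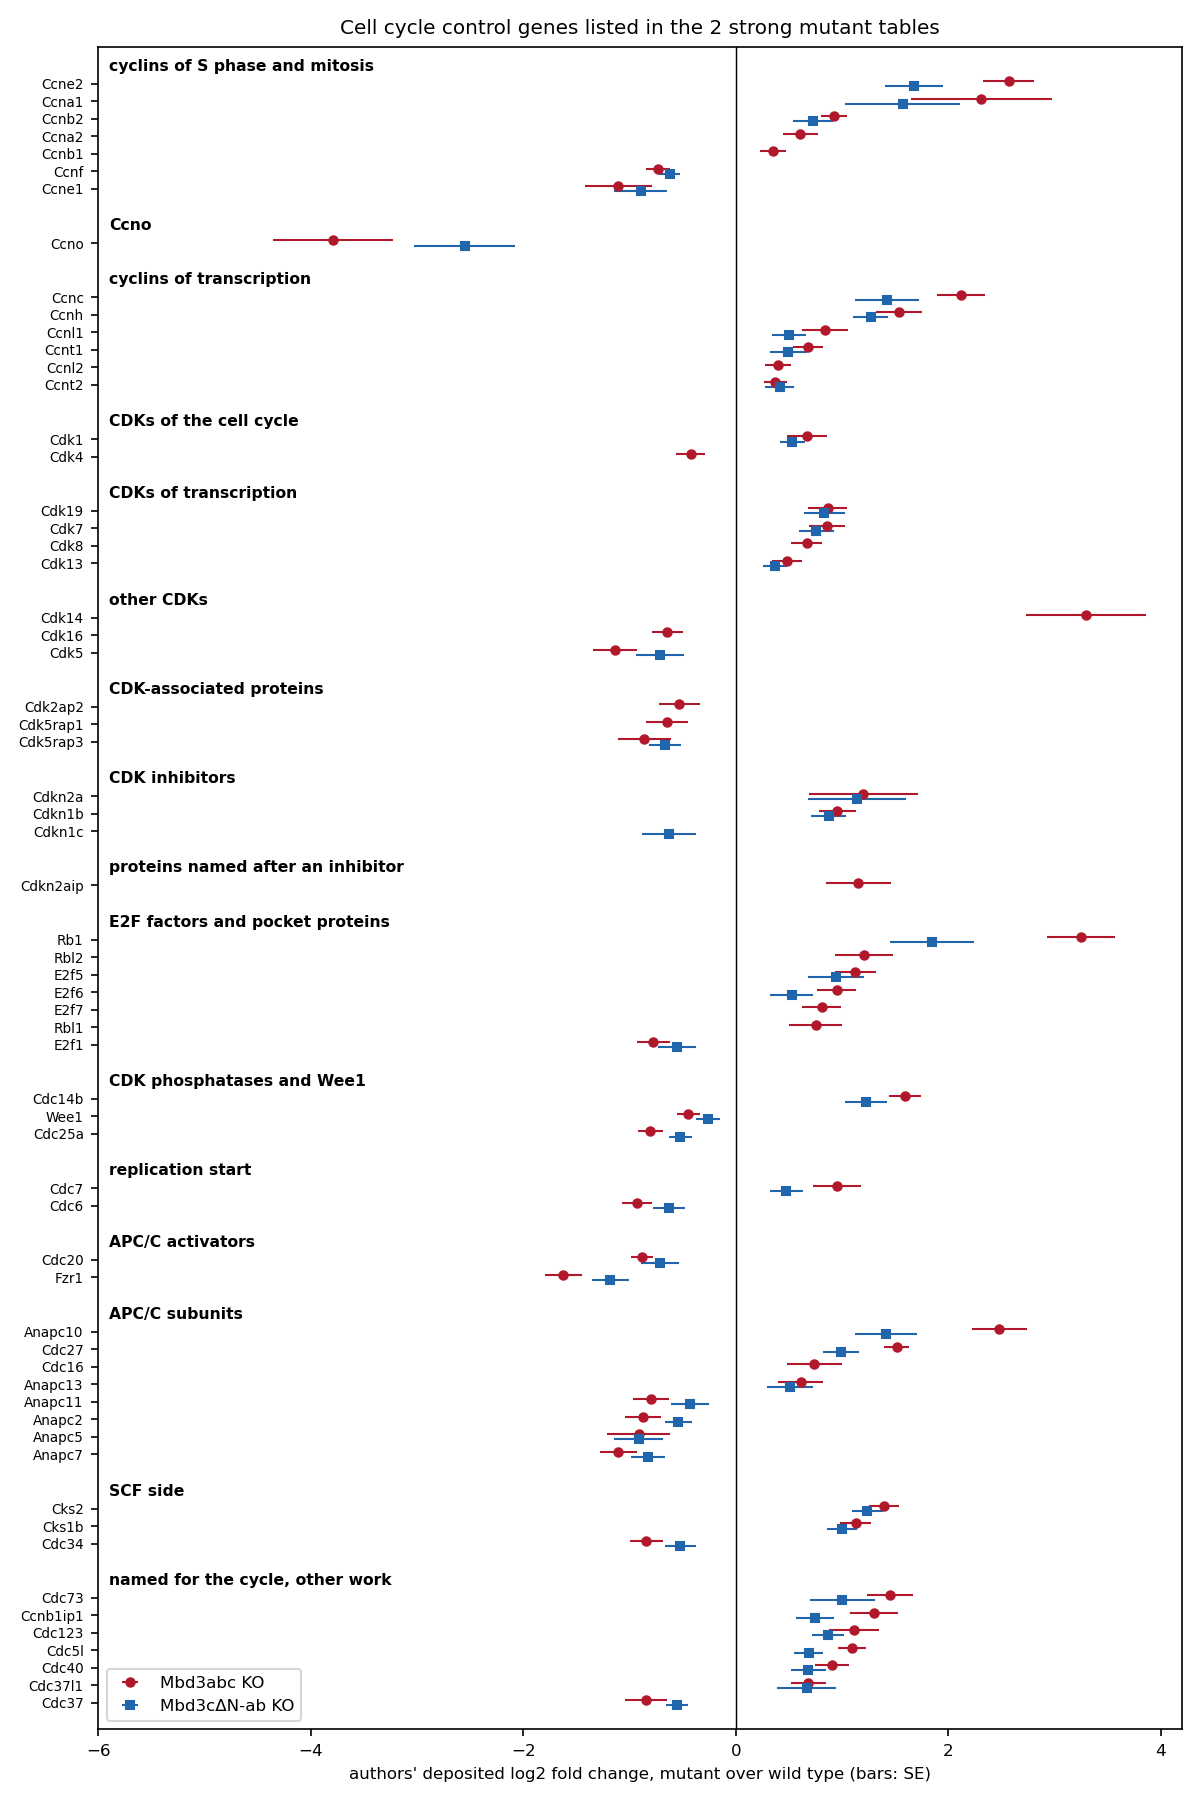
Log2 fold changes of mutant over wild type from the authors' deposited tables (horizontal axis, points; bars are the SE) for each called cell cycle gene, grouped by role; red circles are Mbd3abc KO and blue squares Mbd3cΔN-ab KO, each from 2 mutant and 2 wild type libraries. The transcription cyclins and CDKs all lie to the right of 0, both APC/C activators to the left, and Ccno lies farthest left at -3.79 and -2.55.

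Ccno, an atypical cyclin known for centriole amplification in multiciliated cells, had the largest drop of the genes taken by symbol. Its gene lies on the plus strand of chromosome 13 at 112987802 to 112990778 (mm10). Normalized reads were 54.1 and 45.7 in wild type and 1.93 and 0.956 in Mbd3abc KO, which rests on 42 and 56 reads in wild type and on 2 and 1 in the mutant. The ratio of reads per depth was 33.97-fold lower, with an exact 95% interval from counting of 11.3 to 168. This and the intervals below cover counting error only, since the reads of the 2 libraries of each group were pooled. The spread between libraries is left out. No molecular identifiers are described for these libraries, and each read was counted as independent. In the Mbd3cΔN-ab KO table it stood at 51.3 and 43.7 in wild type and 1.21 and 5.93 in the mutant (1 and 7 reads), 11.7-fold lower by reads with an interval of 5.72 to 27.9. The mutant libraries of each line were all far below wild type, but those of Mbd3cΔN-ab KO lay apart from each other. DESeq2 gave log2 fold changes of -3.79 ± 0.57 (SE; adjusted p = 1.84e-10) and -2.55 ± 0.48 (adjusted p = 9.03e-07) in the authors' deposited tables. The log2 ratio in Mbd3cΔN-ab KO was -3.73 with all libraries, -3.00 without the first mutant library and -5.30 without the second, and its call was lost without either wild type library. In Mbd3abc KO the log2 ratio was -5.11, and -5.71 without the first mutant library.

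Other genes of multiciliated cells did not share one direction. Of a list of 10 that includes Ccno, 6 were called in Mbd3abc KO: Ccno, Myb and Rfx2 lower, and Foxj1, Rfx3 and Trp73 higher. Foxj1, the master gene of motile cilia, went from 18.0 and 10.6 normalized reads to 196 and 79.2. The defining genes Mcidas, Gmnc, Deup1 and Cdc20b were listed in no table. In Mbd3cΔN-ab KO 3 were called, Ccno lower and Foxj1 (7.12-fold) and Rfx3 (1.67-fold) higher, and in Mbd3ab KO Foxj1 alone, 7.49-fold higher. The summed level of the 6 genes called in Mbd3abc KO was 1972 and 1696 in wild type against 1635 and 1338. Rfx2 alone gave 1627 and 1387 of those wild type sums. For the 3 genes called in Mbd3cΔN-ab KO, without Rfx2, it was 154 and 134 against 283 and 195. The sums of the lines cover different genes, and the part of these genes in the result for Ccno was not tested.

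The E cyclins, which bind Cdk2 around the start of replication, moved in opposite directions. Ccne1 had 2308 and 2377 normalized reads in wild type and 759 and 1329.9 in Mbd3abc KO, a 2.24-fold drop, and 2191 and 2271 against 916 and 1395 in Mbd3cΔN-ab KO, 1.93-fold. Ccne2 had 59.2 and 44.0 in wild type and 312 and 325 in Mbd3abc KO, 6.17-fold higher, and 56.2 and 42.1 against 159 and 179 in Mbd3cΔN-ab KO, 3.43-fold higher. In neither gene did mutant and wild type libraries overlap. Called genes were picked for a difference between the groups, so a lack of overlap here and below is no further support. Its share over all called genes is not given. In the authors' deposited tables, the DESeq2 adjusted p was 0.00116 and 0.00114 for Ccne1, and 1.06e-24 and 1.05e-08 for Ccne2. Per kilobase of the listed transcript, wild type held 1206 normalized reads of Ccne1 and 16.7 of Ccne2, and Mbd3abc KO held 538 and 103. Ccne1 therefore stayed the more abundant, at a smaller ratio than in wild type. The call of Ccne2 in Mbd3cΔN-ab KO was lost without the second wild type library.

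The cyclins of mitosis rose, and by less. Ccnb2, a B-type partner of Cdk1, had 1086 and 1202 normalized reads in wild type and 2198 and 2174 in Mbd3abc KO, 1.91-fold, and in Mbd3cΔN-ab KO it reached 2051 and 1615, 1.68-fold above its wild type of 1031 and 1149. Ccna2, the A-type cyclin of dividing cells, had 1787 and 1922 in wild type and 2565 and 3124 in Mbd3abc KO, 1.53-fold. Ccnb1, the main mitotic cyclin, had 4107 and 3833 against 4831 and 5327, 1.28-fold, and its call was not made by edgeR (adjusted p = 0.0756). RefSeq lists pseudogenes of Ccnb1 and Ccnb2, and reads shared with them could not be separated here. Ccnf, which is the F-box subunit of an SCF ligase and binds no CDK, went the other way, from 4315 and 4226 to 2437 and 2681 in Mbd3abc KO (1.67-fold lower) and from 4095 and 4039 to 2569 and 2696 in Mbd3cΔN-ab KO (1.55-fold lower). Ccna1, the A-type cyclin of germ cells, was close to absent in wild type, with 1 read in each library, and had 17 and 13 reads in Mbd3abc KO and 11 and 11 in Mbd3cΔN-ab KO. The ratios per depth were 14.4 (exact 95% interval from counting 3.66 to 125) and 11.5 (2.82 to 101), and the call was lost whichever library was left out. Among all these cyclins Ccnb2, Ccne1 and Ccne2 kept their call in Mbd3abc KO whichever library was left out, and in Mbd3cΔN-ab KO Ccne1 did.

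Cdk1, the kinase of mitosis, rose with the B and A cyclins, and Cdc20, the APC/C activator of mitosis, fell with Ccnf. Transcription of genes of this phase is known to run through a CHR element (TTTGAA) bound by the MuvB complex and through CCAAT boxes bound by NF-Y, so the 250 bases before the RefSeq start of these 4 genes and of Ccno are shown, 5′ to 3′, with the letters of either motif on either strand in capitals. All come from RefSeq windows of GRCm38.p6: Ccnb2 from the minus strand of chr9:70421555-70421804, Cdk1 from the minus strand of chr10:69352913-69353162, Cdc20 from the minus strand of chr4:118437344-118437593, Ccnf from the minus strand of chr17:24251410-24251659 and Ccno from the plus strand of chr13:112987552-112987801.
Ccnb2: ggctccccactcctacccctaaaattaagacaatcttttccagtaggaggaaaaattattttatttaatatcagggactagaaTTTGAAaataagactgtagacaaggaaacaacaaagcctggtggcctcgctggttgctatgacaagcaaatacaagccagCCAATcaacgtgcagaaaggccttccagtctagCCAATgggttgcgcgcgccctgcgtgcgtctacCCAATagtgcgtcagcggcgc
Cdk1: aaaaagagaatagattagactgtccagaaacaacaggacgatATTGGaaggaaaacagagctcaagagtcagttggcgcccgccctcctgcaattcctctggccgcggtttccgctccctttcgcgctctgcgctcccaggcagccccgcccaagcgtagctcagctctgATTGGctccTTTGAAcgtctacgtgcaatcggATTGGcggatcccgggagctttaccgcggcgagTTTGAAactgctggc
Cdc20: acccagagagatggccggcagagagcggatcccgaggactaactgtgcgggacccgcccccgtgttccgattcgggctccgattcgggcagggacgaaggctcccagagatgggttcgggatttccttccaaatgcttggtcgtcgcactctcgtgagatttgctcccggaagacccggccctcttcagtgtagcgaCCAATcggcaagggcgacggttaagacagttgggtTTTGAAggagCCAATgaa
Ccnf: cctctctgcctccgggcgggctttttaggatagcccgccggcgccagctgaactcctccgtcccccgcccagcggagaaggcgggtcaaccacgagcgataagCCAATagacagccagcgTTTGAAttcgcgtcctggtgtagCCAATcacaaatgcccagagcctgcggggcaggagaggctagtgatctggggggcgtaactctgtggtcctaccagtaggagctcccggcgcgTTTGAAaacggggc
Ccno: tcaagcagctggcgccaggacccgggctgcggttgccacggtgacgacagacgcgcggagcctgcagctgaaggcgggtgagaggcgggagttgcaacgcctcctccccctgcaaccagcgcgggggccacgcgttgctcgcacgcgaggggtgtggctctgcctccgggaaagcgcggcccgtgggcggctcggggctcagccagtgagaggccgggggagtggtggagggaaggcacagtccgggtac
Ccnb2 and Cdk1 (higher) and Cdc20 and Ccnf (lower) all hold both motifs, with 1 or 2 CHR and 2 or 3 CCAAT matches each, and the Ccno stretch holds neither. Windows from 250 bases before to 50 after the start were found within 50 bases of the listed start for 44 of the 62 genes. CHR letters stood in 10 of the 44 (22.7%) and in 17.9% of all 32851 RefSeq windows of that length, CCAAT in 24 (54.5%) and 37.4%, both in 5 (11.4%) and 6.95%. Cks1b was the remaining gene with both. The E2F letters TTTCCCGC or TTTGGCGC, searched on both strands, stood in 3 (6.82%; Cdc25a, Cdkn2a and E2f7) and in 1.56% of all windows. The median GC content was 64.7% in the 44 windows and 52.7% in all windows, and its part in these shares was not tested. A match of letters is a description and shows no binding.

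Of the kinases that drive the cycle, Cdk1 and Cdk4 were called. Cdk1 had 1505 and 1378 normalized reads in wild type and 2038 and 2583 in Mbd3abc KO, 1.60-fold higher. In the Mbd3cΔN-ab KO table it had 1428 and 1317 against 2012 and 1974, 1.45-fold higher. Cdk4, the partner of the D cyclins, fell 1.35-fold in Mbd3abc KO, from 4149 and 4337 to 2919.9 and 3379, with mutant libraries below both wild type libraries. By DESeq2 in the authors' deposited tables, the adjusted p was 0.00108 and 3.77e-05 for Cdk1 and 0.00515 for Cdk4, and each of these 3 calls was lost without either wild type library. Per kilobase, Cdk4 was the most abundant of the 61 called genes in wild type, at 3176 normalized reads, above Cdc20 at 2009.5.

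Kinases with work outside the core cycle differed among themselves. Cdk5, the kinase of neurons, had 212 and 196 in wild type and 89.9 and 91.6 in Mbd3abc KO (2.25-fold lower), and 202 and 187 against 103 and 126 in Mbd3cΔN-ab KO (1.69-fold lower). Cdk16 fell 1.57-fold in Mbd3abc KO. Cdk14, a kinase linked to Wnt receptor phosphorylation, had 0 and 6 reads in wild type and 56 and 57 in Mbd3abc KO, a ratio per depth of 18.1 (exact 95% interval from counting 8.07 to 50.4), and its call was lost without either mutant library. All 3 called CDK-associated genes were lower in Mbd3abc KO: Cdk5rap3 1.86-fold, Cdk5rap1 1.58-fold and Cdk2ap2 1.46-fold. Of the calls in this group none held in every fit without 1 library.

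Cyclins and CDKs of transcription were all higher where called: 6 of 6 cyclins and 4 of 4 kinases in Mbd3abc KO, and 5 of 5 and 3 of 3 in Mbd3cΔN-ab KO. Of all called genes 52.1% and 50.9% were higher, and the group as such was not tested. Ccnc, the cyclin of the Mediator kinase module, had 88.8 and 66.9 normalized reads in wild type and 352 and 343 in Mbd3abc KO, 4.47-fold, and reached 177 and 256 from 84.3 and 63.9 in Mbd3cΔN-ab KO, 2.92-fold. Its kinases Cdk8 and Cdk19 rose 1.60-fold and 1.84-fold in Mbd3abc KO, and Cdk19 rose 1.83-fold in Mbd3cΔN-ab KO. Ccnh, which forms the CDK-activating kinase of TFIIH with Cdk7, had 187 and 192 against 633 and 496 (2.98-fold) in the first comparison and 177 and 184 against 448 and 442 (2.46-fold) in the second. Cdk7 itself had 591 and 567 against 1162 and 955 (1.83-fold), and 561 and 542 against 1027 and 861 (1.71-fold). Both libraries of each mutant stood above both wild type libraries for these genes. The cyclins of P-TEFb, Ccnt1 and Ccnt2, rose 1.61-fold and 1.296-fold in Mbd3abc KO, the splicing-linked Ccnl1 and Ccnl2 1.81-fold and 1.32-fold, and Cdk13 1.40-fold. In the authors' deposited tables the DESeq2 adjusted p was 3.51e-19 and 2.01e-05 for Ccnc and 5.58e-12 and 1.27e-13 for Ccnh. Ccnh kept its call in both lines whichever library was left out, and Ccnc did in Mbd3abc KO. Cdk9, Cdk11b, Cdk12 and Ccnk were listed in no table.

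Cdkn2a, which encodes the INK4 inhibitor of Cdk4 and Cdk6 and, in another frame, the ARF activator of p53, was the only one of these genes called in Mbd3ab KO, and it was higher in 3 of the 4 mutant lines. It lies on the minus strand of chromosome 4 at 89274473 to 89294619 (mm10), and its products share exons that these gene totals pool. In the Mbd3ab KO table it had 7.73 and 8.50 normalized reads in wild type and 46.5 and 37.6 in the mutant, 5.19-fold higher. It had 9.01 and 9.78 against 20.3 and 30.5 in Mbd3abc KO (2.70-fold) and 8.55 and 9.36 against 21.7 and 28.8 in Mbd3cΔN-ab KO (2.82-fold). All mutant libraries were above the wild type libraries, at low levels. The authors' deposited tables give DESeq2 log2 fold changes of 1.53 ± 0.40 (SE), 1.20 ± 0.51 and 1.14 ± 0.46 in that order, at adjusted p = 0.00826, 0.0378 and 0.0334. Reads in the wild type libraries were 7 and 12, and the exact 95% intervals from counting were 1.56 to 4.80 for the ratio in Mbd3abc KO and 1.66 to 5.12 in Mbd3cΔN-ab KO. In these 2 lines the call was lost whichever library was left out, and limma did not make the call in Mbd3ab KO. Mbd3ab KO was not tested against the other lines, since whole reads were not recovered from its table.

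Cdkn1b, which encodes the CDK2 inhibitor p27, had 237 and 232 normalized reads in wild type and 491 and 426 in Mbd3abc KO, 1.96-fold higher. It had 225 and 221 against 434 and 398 in the Mbd3cΔN-ab KO table, 1.87-fold higher. The libraries of each group lay close together and the groups did not overlap, but the call was lost in both lines without either wild type library. Cdkn1c, which encodes the imprinted inhibitor p57, fell 1.60-fold in Mbd3cΔN-ab KO, from 151 and 147 to 80.6 and 106, a call that edgeR did not make (adjusted p = 0.0559). Cdkn2aip, whose protein binds the ARF product, rose 2.31-fold in Mbd3abc KO. The INK4 genes Cdkn2b, Cdkn2c and Cdkn2d were listed in no table.

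Rb1, the retinoblastoma gene that restrains E2F factors, had the largest rise of the genes taken by symbol apart from the scarce Ccna1 and Cdk14. The gene lies on the minus strand of chromosome 14 at 73195502 to 73325791 (mm10). Wild type libraries had 106 and 106 normalized reads and the Mbd3abc KO libraries 1429.5 and 861, 10.8-fold higher. In the Mbd3cΔN-ab KO table wild type had 100.2 and 101 and the mutant 652 and 275, 4.60-fold higher. Wild type was nearly identical between libraries, whereas the mutant libraries of each line differed from each other. Log2 fold changes by DESeq2 in the authors' deposited tables were 3.25 ± 0.32 (SE; adjusted p = 2.73e-23) and 1.85 ± 0.39 (adjusted p = 2.01e-05). With the authors' size factors the call held in both lines whichever library was left out. The log2 ratio in Mbd3cΔN-ab KO was 2.20, or 1.45 without the first mutant library. Its relatives also rose in Mbd3abc KO: Rbl1 (p107) from 193 and 173 to 266 and 361, 1.71-fold, and Rbl2 (p130) from 95.2 and 103 to 199 and 275, 2.39-fold. All 3 pocket protein genes were thus higher in that line, with Rbl1 and Rbl2 losing their call without either wild type library and without the second mutant library.

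Of the E2F genes E2f1 was lower and E2f5, E2f6 and E2f7 were higher. E2f1, an activator of S phase genes, had 685 and 785 normalized reads in wild type and 434 and 419 in Mbd3abc KO, 1.72-fold lower, and 650.0 and 749.9 against 510.1 and 434 in Mbd3cΔN-ab KO, 1.48-fold lower. The others belong to the repressor type. E2f5 had 111 and 123 against 264 and 257 (2.23-fold) in Mbd3abc KO and 105 and 118 against 188 and 261 (2.01-fold) in Mbd3cΔN-ab KO. E2f6 rose 1.95-fold and 1.46-fold, the latter not called by edgeR (adjusted p = 0.0654), and E2f7 rose 1.77-fold in Mbd3abc KO. By DESeq2 in the authors' deposited tables, the adjusted p was 2.00e-06 and 0.00677 for E2f1 and 2.88e-08 and 0.00149 for E2f5. Each E2F call was lost without the first wild type library, and each but E2f7 also without the second. E2f2, E2f3, E2f4 and E2f8 were listed in no table.

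**Figure D2:**
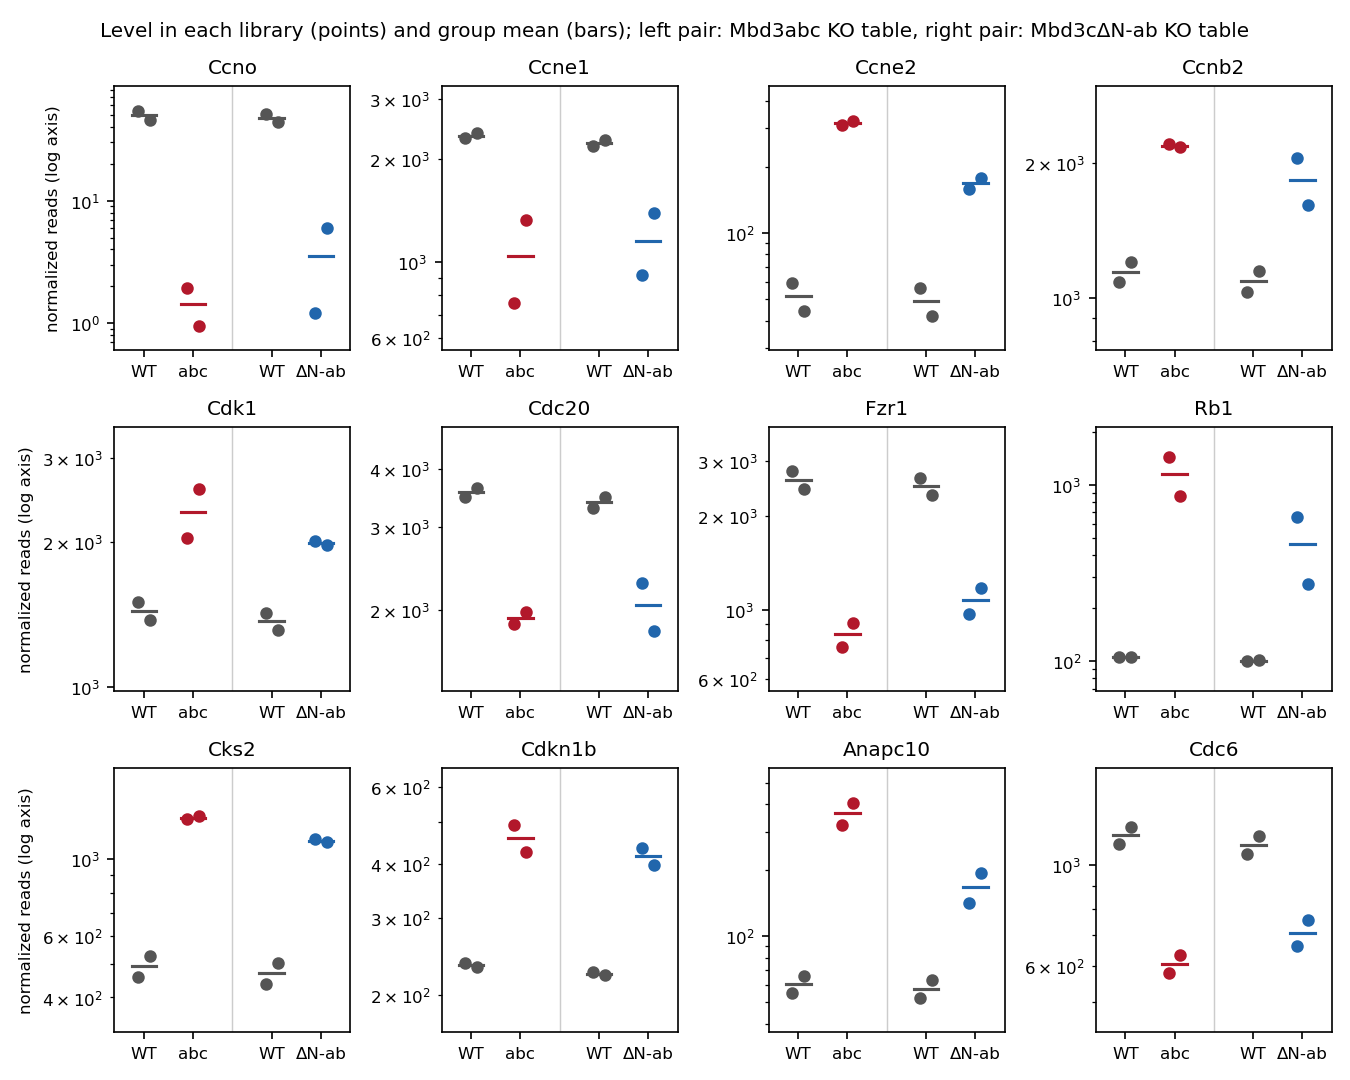
Normalized reads (log axis, each panel with its own range) of 12 cell cycle genes in each library (points) with the group mean (bars); grey is wild type, red Mbd3abc KO and blue Mbd3cΔN-ab KO, and the pairs left and right of the line come from 2 tables normalized separately. Ccne1 fell while Ccne2 rose, and Rb1 was about even between wild type libraries and at 861 or more in Mbd3abc KO. Mutant and wild type points did not overlap in any panel, but all genes shown were chosen from called genes.

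Among the phosphatases and kinases that set CDK activity, Cdc25a, which removes inhibitory phosphate from CDKs, had 1369.6 and 1396 normalized reads in wild type and 755 and 822 in Mbd3abc KO, 1.75-fold lower, and 1299.9 and 1334 against 918 and 910.5 in Mbd3cΔN-ab KO, 1.44-fold lower. Its opponent Wee1, which adds that phosphate, fell as well, 1.36-fold and 1.20-fold, the smaller of these not called by edgeR (adjusted p = 0.118). Cdc14b, a phosphatase that reverses CDK phosphorylation, rose from 215 and 201 to 626 and 640.1 in Mbd3abc KO (3.04-fold) and from 204 and 193 to 528 and 429 in Mbd3cΔN-ab KO (2.41-fold). In the authors' deposited tables the DESeq2 adjusted p for Cdc14b was 1.43e-25 and 1.04e-08, and the call held in both lines whichever library was left out. That of Cdc25a did not hold without either wild type library.

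At replication origins the loading factor and the firing kinase moved apart. Cdc6, which loads the MCM helicase, had 1113 and 1209.6 normalized reads in wild type and 578 and 635 in Mbd3abc KO, 1.91-fold lower, and 1057 and 1156 against 664 and 755 in Mbd3cΔN-ab KO, 1.56-fold lower. Cdc7, the kinase that fires origins, had 381 and 359.7 against 619.6 and 839, 1.97-fold higher, and 362 and 344 against 466 and 520.0, 1.40-fold higher. Groups did not overlap for either gene. Cdc6 in Mbd3abc KO kept its call whichever library was left out, and Cdc45 was listed in no table.

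Both activators of the APC/C, the ligase that destroys mitotic cyclins, fell. Fzr1, which encodes Cdh1, the activator of late mitosis and the first gap phase, lies on the minus strand of chromosome 10 at 81366879 to 81378370 (mm10). It had 2786 and 2449 normalized reads in wild type and 761 and 909 in Mbd3abc KO, 3.13-fold lower, and 2644 and 2341 against 969.7 and 1177 in Mbd3cΔN-ab KO, 2.32-fold lower. Cdc20 had 3477 and 3645 against 1864 and 1982 in Mbd3abc KO, 1.85-fold lower, and 3299.9 and 3484 against 2285 and 1804 in Mbd3cΔN-ab KO, 1.66-fold lower. All mutant libraries lay below the wild type libraries. For Fzr1 the authors' deposited tables give DESeq2 log2 fold changes of -1.62 ± 0.17 (SE; adjusted p = 1.15e-19) and -1.18 ± 0.17 (adjusted p = 1.86e-10). Those of Cdc20 from the same DESeq2 tables were -0.88 ± 0.11 (adjusted p = 1.01e-15) and -0.71 ± 0.18 (adjusted p = 0.000288). Fzr1 kept its call in both lines whichever library was left out, while Cdc20 in Mbd3cΔN-ab KO lost it without either wild type library.

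The subunits of the APC/C did not move together. In Mbd3abc KO 4 were higher and 4 lower, and in Mbd3cΔN-ab KO 3 were higher and 4 lower. Anapc10, the subunit that helps recognise substrates, had 55.4 and 66.1 normalized reads in wild type and 322 and 406 in Mbd3abc KO, 5.998-fold higher, and 52.5 and 63.1 against 141.97 and 194 in Mbd3cΔN-ab KO, 2.90-fold higher. Cdc27, a scaffold subunit, had 711 and 736 against 2006 and 2159.9 (2.88-fold), and 674 and 703 against 1254 and 1526 (2.02-fold). Cdc16 rose 1.70-fold and Anapc13 1.53-fold in Mbd3abc KO. On the lower side, the scaffold subunit Anapc5 had 5172 and 5343 against 2026 and 3383 (1.94-fold lower), and 4909 and 5106 against 2096 and 3049 (1.95-fold lower). Anapc7 fell 2.18-fold and 1.79-fold, and Anapc2 and Anapc11, which form the catalytic core, fell 1.85-fold and 1.75-fold in Mbd3abc KO and 1.46-fold and 1.36-fold in Mbd3cΔN-ab KO. By DESeq2 in the authors' deposited tables, the adjusted p was 1.41e-35 and 6.14e-08 for Cdc27 and 0.00445 and 0.000286 for Anapc5, and both genes kept their call in both lines whichever library was left out. In Mbd3cΔN-ab KO the calls of Anapc11 and Anapc13 were not made by edgeR (adjusted p = 0.0538 and 0.0959). Per kilobase in wild type, Anapc5 stood at 1917 and Anapc10 at 21.7 normalized reads.

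On the side of the SCF ligases, the small CDK-binding proteins rose and the ubiquitin-conjugating enzyme fell. Cks2 had 459.5 and 527 normalized reads in wild type and 1305 and 1331 in Mbd3abc KO, 2.67-fold, and 436 and 504 against 1141 and 1121 in Mbd3cΔN-ab KO, 2.41-fold. Cks1b, which helps SCF bind p27, had 466 and 487 against 988 and 1118 (2.21-fold), and 442 and 465 against 881 and 959 (2.03-fold). Both libraries of each group lay close together. Cdc34, the conjugating enzyme, had 2345 and 2369 against 1184 and 1424 (1.81-fold lower), and 2226 and 2264 against 1421 and 1683 (1.45-fold lower). In the authors' deposited tables the DESeq2 adjusted p was 9.42e-22 and 2.87e-15 for Cks2 and 1.53e-13 and 2.18e-11 for Cks1b. All 3 calls held in Mbd3abc KO whichever library was left out, and those of Cks1b and Cks2 also held in Mbd3cΔN-ab KO.

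The symbols also take in 7 genes named after yeast cell cycle mutants or a cyclin but known for other work, and 6 of them were higher in both lines. Cdc73, of the Paf1 complex, rose 2.80-fold and 2.13-fold. The ligase gene Ccnb1ip1 rose 2.53-fold and 1.71-fold, and the translation factor chaperone Cdc123 rose 2.21-fold and 1.85-fold. The splicing genes Cdc5l and Cdc40 rose 2.15-fold and 1.88-fold in Mbd3abc KO, and Cdc37l1 rose 1.62-fold. Cdc37, the Hsp90 partner that delivers kinases, fell from 2973 and 3082 to 1444 and 1888 (1.82-fold) in Mbd3abc KO and from 2822 and 2946 to 1924 and 1993 (1.47-fold) in Mbd3cΔN-ab KO. In Mbd3cΔN-ab KO each of the 7 calls was lost without at least 1 library.

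Whether Mbd3abc KO and Mbd3cΔN-ab KO differed from each other was tested with edgeR on reads of the 5413 genes listed in both tables. Of the 47 cell cycle genes 1 was called, beside 6.67% of all genes. That gene, Anapc10, was higher in Mbd3abc KO by 1.004 on the log2 scale (edgeR adjusted p = 0.0436, with 0.0102 to 0.108 over the alternatives), and both of its libraries lay above both of Mbd3cΔN-ab KO. Ccne2 missed the threshold with a log2 difference of 0.81 (edgeR adjusted p = 0.0526; 0.0335 to 0.130 over the alternatives). For Cdc27 the difference was 0.48 (adjusted p = 0.0672; 0.0370 to 0.159) and for Rb1 1.20 (adjusted p = 0.0954; 0.0258 to 0.338). For Ccno, where counts were few, it was -1.45 (edgeR adjusted p = 0.296). An unadjusted p under 0.05 was reached by 15 of the 47 (31.9%) and by 32.3% of all 5413 genes. The fold over wild type was larger in Mbd3abc KO for 43 of the 47 genes (91.5%; the exceptions were Anapc5, Ccnt2, Cdc37l1 and Cdkn2a), and for 89.7% of the 5373 genes with 1 direction in both tables, both folds being taken against the same wild type libraries. DESeq2 called 4, which were Anapc10, Ccne2, Cdc27 and Rb1 (12.9% of all genes), and limma 0 (0.998%). Without the first or second Mbd3abc KO library or the second Mbd3cΔN-ab KO library edgeR called none of the 47 (0.536%, 6.85% and 0.388% of all genes), and without the first Mbd3cΔN-ab KO library it called Rb1 (2.94%).

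**Figure D3:**
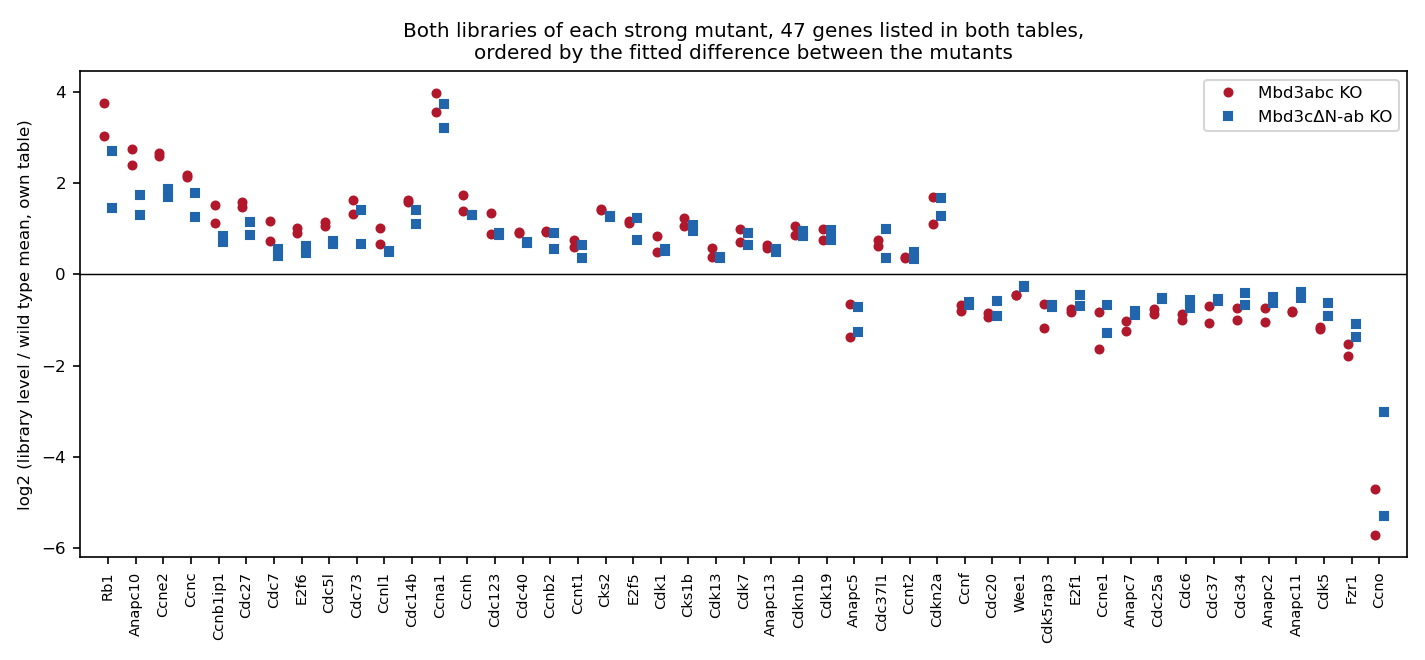
Log2 ratio of each mutant library to the wild type mean of its own table for the 47 cell cycle genes called in both lines, ordered by the fitted difference between the mutants; red circles are the 2 Mbd3abc KO libraries and blue squares the 2 Mbd3cΔN-ab KO libraries. The mutants share their side of 0 for every gene, and the libraries of Anapc10, the gene called different between the mutants, do not overlap.

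Direction went along with the base composition of the listed transcript. The called genes that were higher in Mbd3abc KO had a median GC content of 46.0% and the lower ones 54.3%, and the same was seen over all called genes (44.9% and 55.2%). With all called genes of Mbd3abc KO split into 5 equal classes by GC, 13 of 13 cell cycle genes in the lowest class were higher, then 15 of 15, 11 of 18, 0 of 8 and, in the highest, 1 of 7. The other called genes were higher in 98.4%, 85.8%, 44.4%, 20.6% and 10.3%. In Mbd3cΔN-ab KO the counts were 9 of 9, 11 of 11, 9 of 15, 0 of 6 and 1 of 7, beside 99.1%, 92.9%, 41.5%, 14.2% and 6.10%. Cdkn2a, at 60.2% GC, was the single higher gene of the top class in both lines. Of the pairs described above as moving apart, Ccne2 had 36.3% GC and Ccne1 52.7%, while Cdc7 and Cdc6 lay closer, at 46.5% and 49.4%. The part of base composition in these results was not tested.

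**Figure D4:**
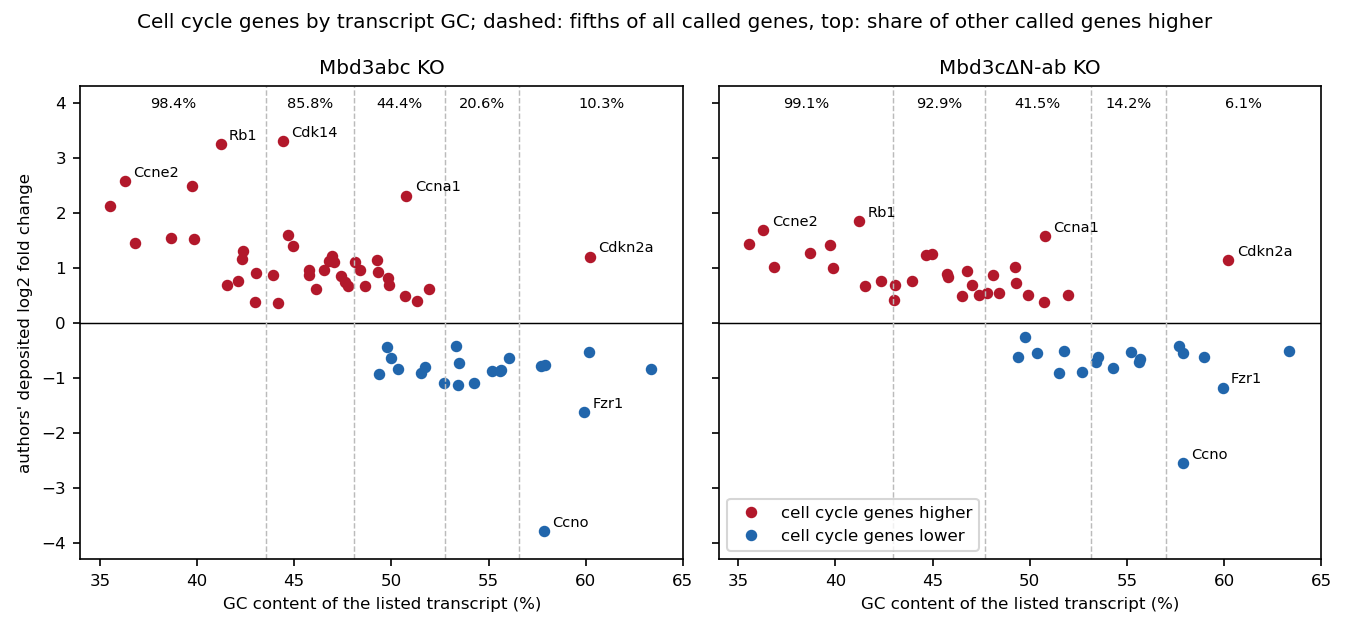
Authors' deposited log2 fold change (vertical axis) against the GC content of the listed transcript in percent (horizontal axis) for the called cell cycle genes in Mbd3abc KO (left) and Mbd3cΔN-ab KO (right); red points were higher and blue points lower, dashed lines part all called genes into 5 equal classes by GC, and the percentages give the share of the other called genes that were higher. No cell cycle gene in the lower 2 classes fell, and Cdkn2a is the only higher gene in the top class.

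A further list of 39 cell cycle genes whose symbols lie outside the rule was also called in both directions. In Mbd3abc KO 28 were called, 15 higher and 13 lower, beside 52.1% of all tested genes (27.1% higher, 24.9% lower). In Mbd3cΔN-ab KO 24 were called, 14 higher and 10 lower, beside 41.5% (21.1% and 20.4%), in Mbd3ab KO 3, all lower, beside 3.35%, and in Mbd3c KO none, beside 0.353%. All 3 D cyclins, the partners of Cdk4 and Cdk6, were lower. Ccnd2 had 444 and 472 normalized reads in wild type and 2.90 and 5.73 in Mbd3abc KO, 421 and 451 against 12.04 and 129 in the Mbd3cΔN-ab KO table, and 381 and 410.3 against 2.45 and 25.6 in the Mbd3ab KO table, 106-, 6.20- and 28.2-fold lower. Its mutant libraries were below wild type in all 3 lines, but the libraries of Mbd3cΔN-ab KO and of Mbd3ab KO lay far apart. Ccnd1 fell 2.52-fold in Mbd3abc KO, 1.63-fold in Mbd3cΔN-ab KO and 1.67-fold in Mbd3ab KO, and Ccnd3 fell 2.96-fold and 2.06-fold in the first 2 of these. Mycn, a driver of growth in ES cells, also fell in the 3 lines, by 2.35-, 2.99- and 2.25-fold.

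Kinases and factors of the mitotic checkpoint in this list were called in both directions. Bub1 rose from 645 and 587 to 2609.7 and 2676 in Mbd3abc KO, 4.29-fold, and 3.13-fold in Mbd3cΔN-ab KO, while the related Bub1b fell 1.39-fold and 1.20-fold. Ttk and Mad2l1 rose 2.54-fold and 2.59-fold in Mbd3abc KO, and Plk1 fell 1.42-fold. Of the MuvB core, which binds the CHR letters shown above, Lin9, Lin52 and Lin54 rose in both lines, Lin9 by 3.11-fold and 2.18-fold, while Lin37 fell 2.12-fold in Mbd3abc KO and Mybl2, which joins MuvB to activate mitotic genes, fell 1.85-fold and 1.90-fold. The replication licensing factor Cdt1 fell 1.82-fold and 1.54-fold, and its inhibitor Gmnn rose 1.84-fold and 1.67-fold. Trp53 fell 1.44-fold in Mbd3abc KO and its ligase Mdm2 rose 4.70-fold. Without the first or second wild type library a DESeq2 refit with size factors over the listed genes called 17 (6 higher, 11 lower) and 18 (7 higher, 11 lower) of the list in Mbd3abc KO, and 8 (1 higher, 7 lower) and 7 (1 higher, 6 lower) in Mbd3cΔN-ab KO, beside 26.2% and 25.5%, and 14.7% and 13.8%, of all tested genes.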

How the data were processed

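Stranded libraries were made from total RNA of 10 mouse ES cell samples after ribosomal RNA was removed with products of NEB and Clontech, per the labels' protocols. TopHat2, HOMER, DESeq2 and mm10 are named in the submitters' processing notes (versions: not given in the sources used here). Exon reads were counted per gene with HOMER with a strand setting, per the file headers. The deposited signal values are those reads divided by the authors' size factors. The authors' log2 fold changes, the score of their Wald test and their p-values come from DESeq2, and other deposited columns give transcript lengths. The tables list called genes only, so the number tested was recovered from the authors' p and adjusted p. Every deposited column was tied to a group, not to a replicate number, so first and second library are only names.

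The main calls are the authors'. Whole reads were recovered (100% of values within 0.006 of what whole reads give) in the Mbd3abc KO and Mbd3cΔN-ab KO tables, and these were refitted with edgeR 4.0.16 (quasi-likelihood, TMM) and DESeq2 1.42.0, adjusting over the number of genes the authors tested. For Mbd3ab KO and Mbd3c KO, where reads were not recovered, limma 3.58.1 on log2(value + 1) took their place, contrary to the plan. R 4.3.3, Python 3.11.15 and scipy 1.17.1 were used, the last for exact intervals. The fits were also run on simulated data with equal spread in all groups, which does not check calls where the spread differs. Alternatives were an adjusted p under 0.01, a fold of at least 2, a mean level of at least 50, pseudocounts of 1 and 8, other size factors and leaving out each library. The GC content came from GENCODE M21 transcripts and the promoters from RefSeq (GRCm38.p6).

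Named in full were the genes of the Mbd3ab KO and Mbd3c KO tables, Ccno, and the 3 largest folds per role and direction in Mbd3abc KO with a mean level of at least 50. Other genes were named after their values were seen. The genes and lists (the roles, other cell cycle genes, and markers of ES cells, multiciliated cells, fibroblasts, primitive endoderm and trophectoderm) were chosen with earlier results of these data known.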

Additional observations from a re-analysis of the deposited data

Results flagged for a closer look

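The level of Anapc10, a substrate-recognition subunit of the APC/C, was called different between the mutants in the main fit, both being higher than wild type. It was the only 1 of 47 cell cycle genes called, beside 6.67% of all genes. Its log2 difference, Mbd3abc KO over Mbd3cΔN-ab KO, was 1.004 by edgeR on the reads of the genes listed in both tables (adjusted p = 0.0436, from 0.0102 to 0.108 over the alternatives). On the scale of that fit, both Mbd3abc KO libraries (302 and 383) lay above both Mbd3cΔN-ab KO libraries (146 and 193), and wild type stood at 66.8 and 79.0. With genes limited to a mean of at least 50 reads edgeR called Ccne2 as well, and with the mutants alone in the fit it called neither. Anapc10 was not called by limma, and its edgeR call was lost whichever mutant library was left out.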

How the results depend on the processing

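Among the named genes, no fold reversed under the scalings tried or without 1 library. Cell cycle genes called in Mbd3abc KO numbered 24 at a fold of at least 2 (61 without that limit), 29, 29, 40 and 36 in DESeq2 refits without the first or second wild type and the first or second mutant library, and 29, 27, 50 and 45 in those with the authors' size factors. In Mbd3cΔN-ab KO (48) these were 15, then 18, 12, 30 and 26, then 13, 11, 34 and 30. Without a wild type library the former refits hold more lower than higher calls (11 higher and 18 lower, 13 and 16; 5 and 13, 2 and 10), the reverse of the 40 and 21, and 30 and 18, as deposited. Other thresholds, filters and tools gave 49 to 60 and 34 to 45. Refits were run on the listed genes only, so none could call more cell cycle genes than the deposited 61 and 48. In Mbd3ab KO the single call gave 0 at a mean level of at least 50 and 0 by limma with either pseudocount. For Mbd3c KO no cell cycle gene was listed, so every setting had to give 0. Of the other cell cycle genes, 14 and 9 were called at a fold of at least 2 in Mbd3abc KO (28) and Mbd3cΔN-ab KO (24), and, without each library in that order, 17, 18, 24 and 24 and 8, 7, 19 and 17. Between the mutants (1 call), DESeq2 gave 4, a mean of at least 50 reads 2, and limma, the mutants alone and an adjusted p under 0.01 gave 0. The call of Anapc10 was lost whichever mutant library was left out. The cause of these differences between settings was not tested. Size factors over the listed genes and refits with the authors' size factors were added after seeing the data. No paired analysis was possible because the deposited columns carry no replicate numbers. Ccno, Ccna1, Cdk14 and Cdkn2a rest on few reads, and 2 libraries per group limit all tests.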
